A study of Mus musculus with 15 samples.

Results

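The 38 genes described here serve the unfolded protein response and the integrated stress response, and all 38 were found by symbol among 43432 gene identifiers and passed the filter on low counts that left 16736 genes to test. They comprise 15 chaperones and folding enzymes of the endoplasmic reticulum (ER), 7 genes of ER-associated degradation, 5 stress sensors and transcription factors, 7 genes of the ATF4 and CHOP branch, and 4 genes of protein translocation and vesicle export. Their transcripts were measured by RNA sequencing in 266-6 cells, a mouse pancreatic acinar line that came from a tumour driven by a viral oncogene under the elastase promoter. No member passed edgeR's test for any retinoid ligand in either main fit, though Sel1l or Trib3 passed in a few alternative settings. In 5 libraries, 1 of each treatment, 20 of the 38 lay wholly above the other 10 libraries, as did 13.4% of all genes tested. Another 4 lay wholly below, a share no larger than the 12.6% of all genes.

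All cells were grown with 10% fetal bovine serum, kept in stripped medium for 24 h and afterwards given a treatment for 24 h. The 5 treatments, with 3 libraries each, were DMSO as vehicle, AM580 (which selectively activates the retinoic acid receptor RARα), CD3254 (an agonist of the retinoid X receptors, RXR, the partners of RARα), AM580 and CD3254 together (the joint treatment), and 9-cis retinoic acid, a ligand of RAR and RXR alike. The series asks how ligands of the partners in the RARα:RXR heterodimer influence each other across the genome. All samples are of 1 cell line, no genetic change is named, and concentrations are not given in the labels. Whether replicates were separate cultures is not in the labels, and the p-values therefore rest on a spread between libraries that may be technical.

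The unfolded protein response matches the folding capacity of the ER to the load of secreted protein, and acinar cells, which make digestive enzymes, are known for a heavy load. Misfolded protein is sensed by IRE1 (encoded by Ern1), PERK (Eif2ak3) and ATF6. IRE1 splices the Xbp1 transcript, PERK phosphorylates eIF2α and so favours translation of ATF4, and ATF6 is cut to release a transcription factor. XBP1 and ATF6 drive chaperones and degradation genes, while ATF4, which also answers amino acid shortage through other kinases, drives Ddit3 (CHOP), Trib3, Chac1, Asns and Sesn2. Splicing of Xbp1 and phosphorylation cannot be seen in counts per gene.

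Promoter sequences of the members, from RefSeq on GRCm38.p6, were matched for 33 of the 38; Manf, Hyou1, Derl1, Atf6 and Sec61a1 had no entry. The 250 bases before each start site were searched on both strands for the ER stress response element (CCAAT and CCACG with 9 bases between them), the related element (ATTGG and CCACG with 1 base between them), the unfolded protein response element core TGACGTGG and the ATF4 composite element TGATGNAA. The stretches below place the ER stress response element both in members that separated the 2 sets of libraries and in members that did not. The response element core (Sec24d) and the ATF4 composite element (Chac1 and Asns) are shown only in members that separated them. The related element is not printed. Capitals mark the fixed letters of a match, which reads as the reverse complement where the element lies on the opposite strand, and each sequence is given 5′ to 3′ on the strand of its gene.
Hspa5, chr2:34772013-34772055, plus strand: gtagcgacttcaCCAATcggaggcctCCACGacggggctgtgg
Calr, chr8:84847063-84847105, minus strand: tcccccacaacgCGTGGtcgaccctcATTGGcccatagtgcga
Pdia6, chr12:17266479-17266521, plus strand: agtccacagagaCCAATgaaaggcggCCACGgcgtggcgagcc
Derl3, chr10:75893230-75893272, plus strand: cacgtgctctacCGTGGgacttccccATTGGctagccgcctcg
Dnajc3, chr14:118937815-118937857, plus strand: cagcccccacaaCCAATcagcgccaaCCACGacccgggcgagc
Syvn1, chr19:6046520-6046562, plus strand: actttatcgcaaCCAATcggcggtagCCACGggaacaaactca
Sec24d, chr3:123267458-123267489, plus strand: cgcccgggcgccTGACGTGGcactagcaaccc
Chac1, chr2:119351037-119351068, plus strand: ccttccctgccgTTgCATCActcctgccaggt
Asns, chr6:7693213-7693244, minus strand: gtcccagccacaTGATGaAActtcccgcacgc

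The ER stress response element was present in 9 of the 33 promoters (27.3%), those of Hspa5, Hsp90b1, Calr, Canx, Pdia6, Dnajc3, Creld2, Syvn1 and Derl3, and in 0.13% of 27025 genes with a promoter entry. The related element was found in 1 member, Herpud1, against 0.037% of genes, and the response element core in 1 member, Sec24d, against 0.603%. The ATF4 composite element was found in 4 members (12.1%), Herpud1, Chac1, Asns and Atf3, against 3.91% of genes. These are matches of letters and not measured binding sites, and RefSeq and GENCODE M21 place some starts apart. The RefSeq start lies inside the GENCODE 5′ end of the gene by 120 bases for Hspa5, and that of Atf3, on the minus strand, stands at 191183333 on chromosome 1 against a GENCODE 5′ end at 191218039, so its match is not near the outermost start.

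Cell identity and library quality bear on every value below. The acinar transcripts Ctrb1 (chymotrypsinogen, 3841 to 7201 CPM, reads per gene scaled to a common library total with TMM factors), Cela1 (elastase, 777 to 3275 CPM) and Prss2 (trypsinogen) were abundant, but the pancreatic lipase Pnlip stayed under 0.646 CPM and the amylase Amy2a5 did not pass the filter. Replicate 3 of 9-cis retinoic acid had 14600962 reads assigned to genes and 63.0% of its reads without a gene, against 28501170 to 46801058 reads and 18.1% to 28.5% in the other 14 libraries. The first principal component, computed on 16543 genes without the members and their pathway lists, accounted for 48.2% of the variance. It set 10 libraries against 5, namely replicate 1 of DMSO, of AM580, of CD3254 and of 9-cis retinoic acid, and replicate 2 of the joint treatment. Those 5 are called the 5 libraries below. The labels give no batch or culture difference that names them, so they are described by levels and ranges, with no p-value.

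The 5 libraries held more summed transcript of ER folding and translocation genes in every treatment, while Sel1l, Atf4, Chac1 and Sesn2 were lower. The 38 members summed to 20400 to 23900 CPM in the 5 libraries and 14800 to 16200 CPM in the other 10. Bulk libraries cannot tell apart more cells with high levels and more transcript per cell. In 20 members all 5 libraries lay above all of the other 10, in 4 members (Sel1l, Atf4, Chac1 and Sesn2) they lay below, and in 14 members the ranges overlapped. Of all 16736 genes tested, 13.4% lay above in the same way and 12.6% lay below, so the 10.5% of members that lay below is near the share among all genes, while the 52.6% that lay above is not. The median log2 ratio of the 5 libraries to the 10 was 0.42 over the members and 0.01 over all genes tested.

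**Figure D1:**
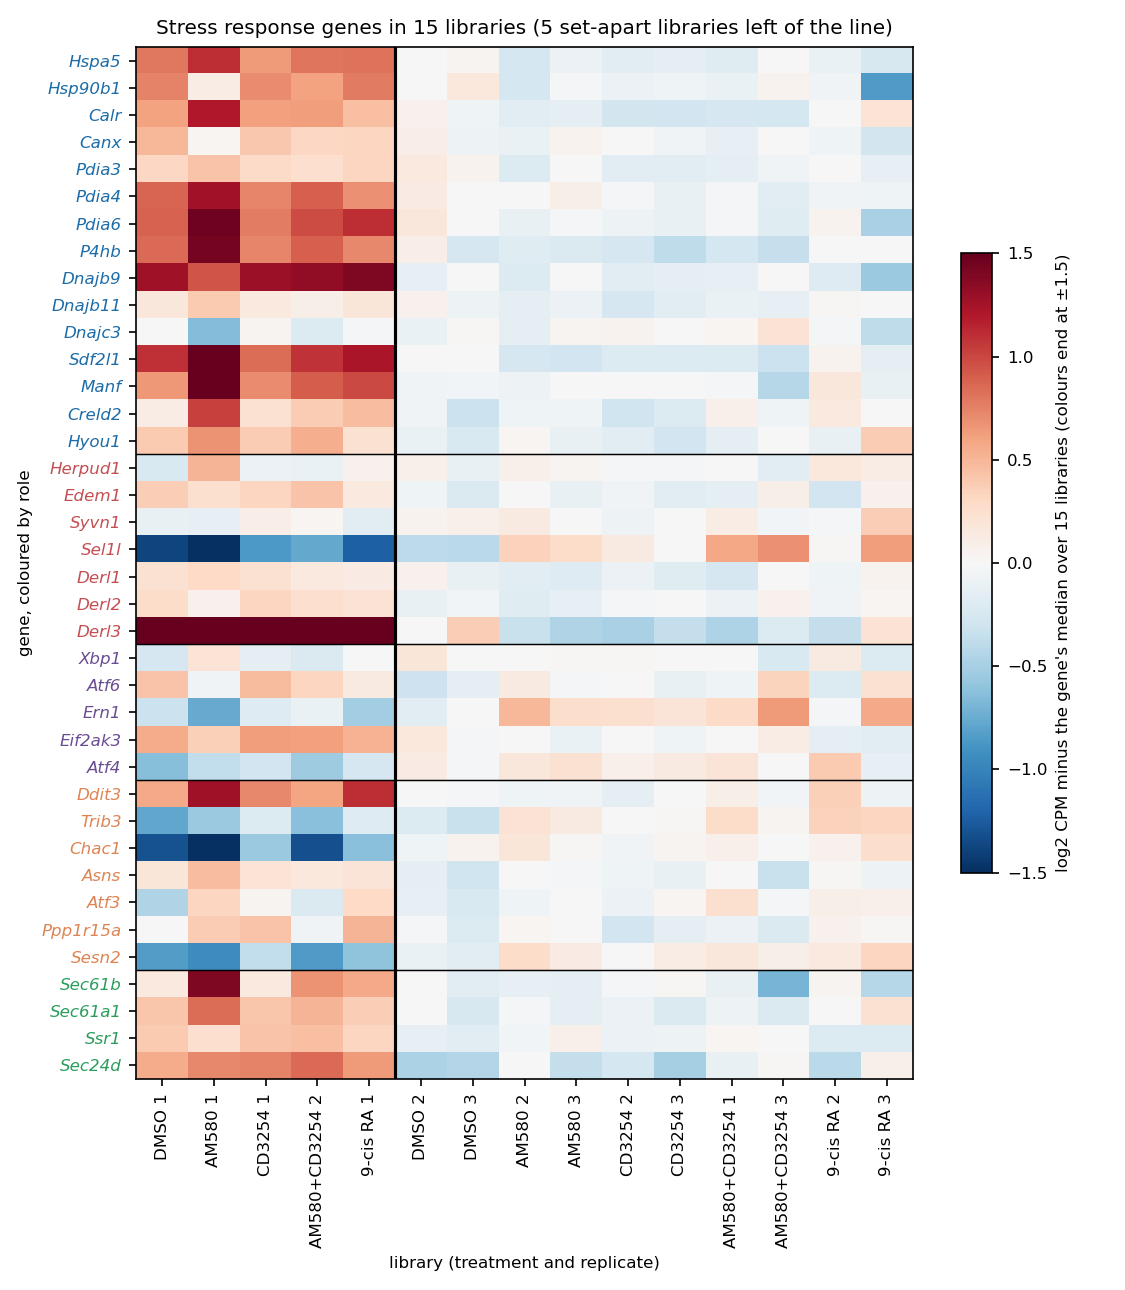
Level of each of the 38 members (vertical, ordered by role) in each of the 15 libraries (horizontal, the 5 libraries left of the line), as log2 CPM minus the member's median over the libraries. The 20 members that lay above in the 5 libraries, most of them folding and translocation genes, and the 4 that lay below stand out at the left.

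The difference was also read within each treatment, as the library among the 5 against the mean of the other 2 libraries of that treatment. It was positive in all 5 treatments for 26 members, negative in all 5 for 6 members (Sel1l, Ern1, Atf4, Trib3, Chac1 and Sesn2) and mixed for Dnajc3, Herpud1, Syvn1, Xbp1, Atf6 and Atf3. Over all genes tested 23.6% were positive in all 5 treatments and 24.6% negative, against 68.4% and 15.8% of the members. In 18 of the 26 and 3 of the 6 (Sel1l, Chac1 and Sesn2) the smallest of the 5 differences exceeded the largest gap between the 2 remaining replicates of any treatment, which was so for 8.69% of all genes upward and 8.26% downward, against 47.4% and 7.89% of the members. The median difference over the members was 0.45 with DMSO, 0.47 with AM580, 0.46 with CD3254, 0.38 with the joint treatment and 0.30 with 9-cis retinoic acid, on the log2 scale.

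A hypoxia-induced gene list moved with the same libraries. In 18 of its 19 genes the 5 libraries lay above the other 10, with a median log2 ratio of 3.05, and the list summed to 7960 to 10500 CPM against 1340 to 1860 CPM. No gene of that list was at 0 in every library. Mitochondrially encoded transcripts took 1.32% to 2.13% of the reads assigned to genes in the 5 libraries and 2.40% to 3.46% in the other 10. The leukocyte list summed to 9.60 to 23.9 CPM against 4.39 to 8.27 CPM, nearly all from Cd68, while Ptprc, its defining marker, did not pass the filter. The acinar list, which marks the identity of the line, was lower by median in 12 of its 14 tested genes (median log2 ratio -0.77), with 4 genes wholly below (the lipase Cel and the factors Ptf1a, Rbpjl and Gata4) and 1 wholly above (Bhlha15), and summed to 6990 to 12300 CPM against 8270 to 12200 CPM. The endocrine list, nearly all Chga, overlapped, with median sums of 297 and 300 CPM, and the insulin gene Ins1 was at 0 in every library. Unless also on a pathway list, the tested genes of these lists and the mitochondrial transcripts were among those that gave the first principal component. Any separation of them along this split is therefore partly built in. The part of these lists and transcripts in the members' levels was not tested.

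Among the 15 chaperones and folding enzymes, 10 lay above in the 5 libraries and none lay below, with a median log2 ratio of 0.78. Over all genes tested 13.4% lay above and 12.6% below. Their summed level was 13300 to 16400 CPM against 7990 to 9270 CPM. Hspa5 (BiP, the main ER chaperone, which holds the sensors inactive; chromosome 2, 34771970 to 34777547, plus strand) stood at 1897 CPM with DMSO, 2359 with AM580, 1712 with CD3254, 1921 with the joint treatment and 1939 with 9-cis retinoic acid in the 5 libraries. The other 10 libraries ranged from 915 to 1127 CPM with a median of 1010, so the ranges were well apart, 1.90-fold between medians. Its promoter carries the element printed above.

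Dnajb9 (ERdj4, a co-chaperone of BiP; chromosome 12, 44205559 to 44210326, minus strand) had the largest ratio of the role. Its levels were 140, 111, 142, 145 and 152 CPM in the 5 libraries, in the order DMSO, AM580, CD3254, joint treatment and 9-cis retinoic acid, and 39.3 to 57.9 CPM (median 52.3) in the other 10. AM580 was the lowest of the 5 and still above the highest of the 10, and the ratio of medians was 2.71. Sdf2l1, a partner of BiP, stood at 153 to 385 CPM against 68.3 to 88.6 CPM.

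P4hb (protein disulfide isomerase) had the highest level per length of all members, a median of 479 CPM per kilobase of exon over the 15 libraries. It read 2470, 3694, 2274, 2553 and 2265 CPM in the 5 libraries, in the same order, and 1056 to 1471 CPM (median 1164) in the other 10. Calr (calreticulin, a calcium-binding lectin chaperone; 371 CPM per kilobase) read 1624, 2449, 1635, 1647 and 1463 CPM against 876 to 1237 CPM (median 961). Both were highest in AM580 replicate 1, and neither overlapped. The disulfide isomerases Pdia3, Pdia4 and Pdia6, the co-chaperone Dnajb11 and the stress-induced factor Manf also lay above, with ratios of medians of 1.32, 1.86, 2.04, 1.20 and 1.91.

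The other 5 folding genes overlapped. Hsp90b1 (GRP94, an ER chaperone; 346 CPM per kilobase) read 2334, 1511, 2287, 2119 and 2402 CPM in the 5 libraries and 776 to 1551 CPM (median 1335) in the other 10. The overlap came from AM580 replicate 1, the low value among the 5, which fell between the 2 highest of the 10. The 776 CPM was that of replicate 3 of 9-cis retinoic acid, the library with 63.0% of its reads without a gene. That library was the lowest of the 15 for 6 of the 38 members and the highest for 3. Canx (calnexin, the membrane lectin chaperone), Creld2 and Hyou1 had ratios of medians of 1.30, 1.36 and 1.42. Dnajc3 (p58IPK, an inhibitor of PERK) was the smallest of the role, at 389, 247, 398, 337 and 382 CPM in the 5 libraries and 297 to 450 CPM (median 390) in the others, in wholly mixed order.

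**Figure D2:**
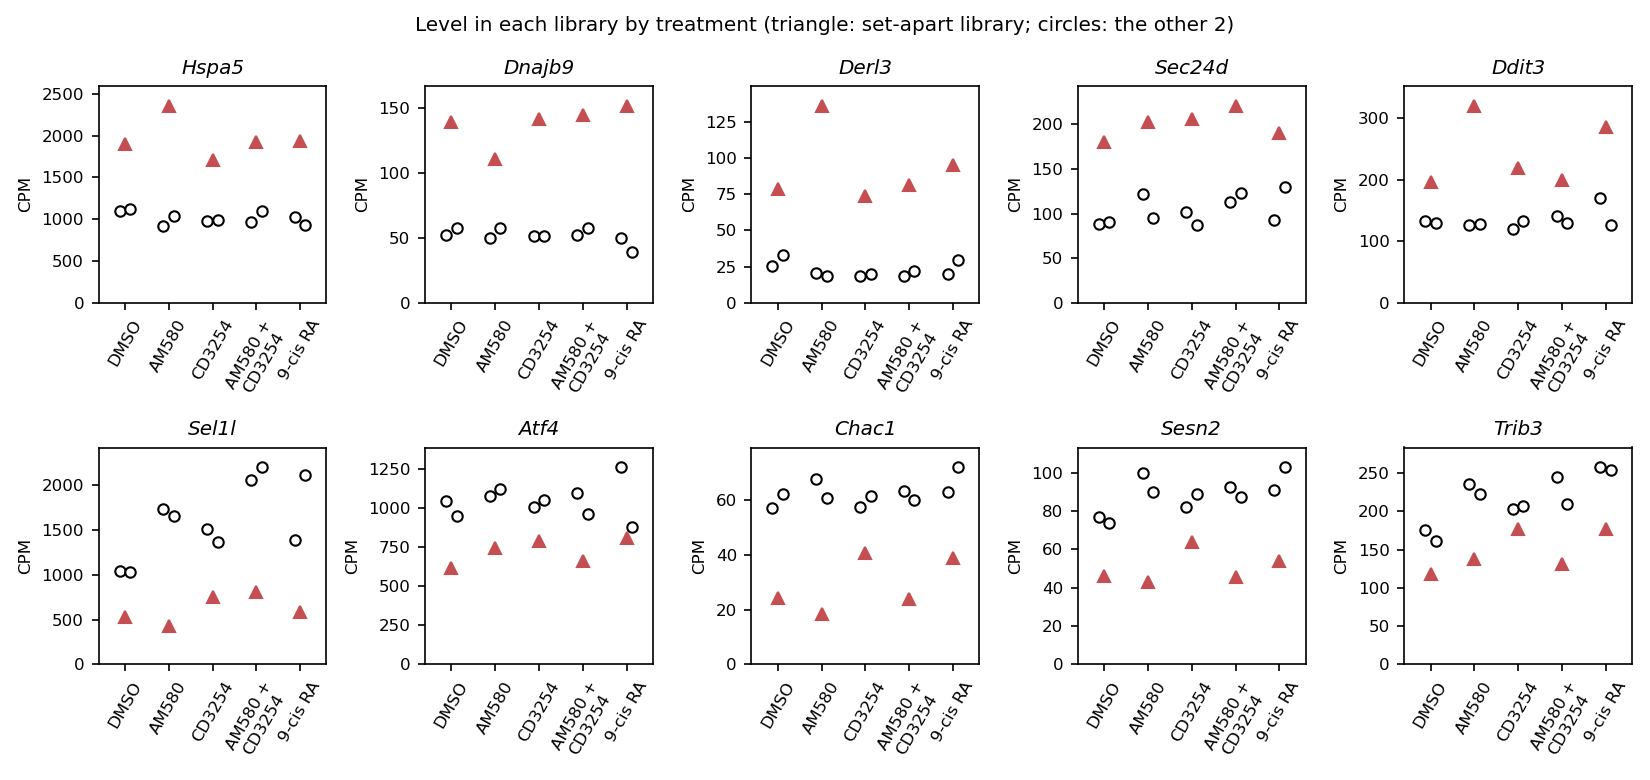
CPM (vertical axis, from 0) in each of the 15 libraries for 10 members, by treatment (horizontal axis), with a triangle for the library among the 5 and circles for the other 2. The triangles lie above the circles for Hspa5, Dnajb9, Derl3, Sec24d and Ddit3 and below them for Sel1l, Atf4, Chac1, Sesn2 and Trib3 in every treatment.

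Degradation genes were mixed. ER-associated degradation draws misfolded proteins back to the cytosol through the membrane ubiquitin ligase Syvn1 (HRD1), its partner Sel1l and the derlins, and Edem1 hands on glycoproteins. Of the 7 genes 3 lay above (Edem1, Derl1 and Derl3), 1 lay below (Sel1l) and 3 overlapped (Herpud1, Syvn1 and Derl2). Their median log2 ratio was 0.30. Over all genes tested 13.4% lay above and 12.6% below, and counts this small say nothing of the role as a whole.

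Derl3 (chromosome 10, 75893413 to 75895941, plus strand), a derlin induced by ER stress, had the largest ratio of all 38 members. It read 78.4, 136, 73.6, 81.7 and 95.1 CPM in the 5 libraries and 18.2 to 33.1 CPM (median 20.1) in the other 10, 4.05-fold between medians. Derl1 read 399 to 451 CPM against 308 to 383 CPM, and Derl2 read 104.5 to 125 CPM against 88.3 to 104.6 CPM, so Derl2 touched at the edge.

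Sel1l (chromosome 12, 91806043 to 91849157, minus strand), the adaptor that holds HRD1 in its complex, had the largest difference downward. With DMSO it read 528 CPM in the library among the 5 and 1039 and 1031 CPM in the others. With AM580 it read 429 against 1733 and 1655 CPM, and with CD3254 752 against 1508 and 1369 CPM. With the joint treatment it read 802 against 2053 and 2200 CPM, and with 9-cis retinoic acid 587 against 1382 and 2111 CPM. The 5 libraries were thus below the lowest of the 10 in every treatment, 0.371-fold between medians. Syvn1 itself read 102 to 122 CPM against 108 to 147 CPM.

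Of the 5 sensors and factors 1 lay above, 1 lay below and 3 overlapped. Beside 13.4% of all genes above and 12.6% below, these counts are not a result about the role. Eif2ak3 (PERK) lay above at 148, 129, 155, 154 and 144 CPM against 89.7 to 112 CPM (median 99.5). Ern1 (IRE1) was lower within every treatment but overlapped, at 148, 109, 161, 172 and 129 CPM against 166 to 288 CPM (median 219), since the 172 CPM of the joint treatment lay above the lowest of the 10. Atf4 (chromosome 15, 80255184 to 80257541, plus strand; 407 CPM per kilobase, the second highest of the members) read 616, 742, 787, 662 and 805 CPM in the 5 libraries and 881 to 1260 CPM (median 1049) in the other 10. Its ranges were apart by a narrow margin, 0.708-fold between medians. Xbp1 and Atf6 overlapped, with ratios of medians of 0.903 and 1.29.

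Of the 7 genes downstream of ATF4 and CHOP 2 lay above (Ddit3 and Asns), 2 lay below (Chac1 and Sesn2) and 3 overlapped (Trib3, Atf3 and Ppp1r15a), with a median log2 ratio of 0.05. Beside 13.4% of all genes above and 12.6% below, counts this small say nothing of the branch as a whole. Ddit3 (CHOP, a factor of prolonged stress) read 197, 320, 220, 200 and 286 CPM in the 5 libraries and 120 to 170 CPM (median 130) in the other 10, 1.69-fold between medians and with no overlap. Chac1 (an enzyme that degrades glutathione; chromosome 2, 119351229 to 119354381, plus strand) read 24.3, 18.5, 40.6, 24.0 and 38.9 CPM against 57.2 to 72.1 CPM (median 61.9), 0.394-fold and with no overlap. Sesn2 (sestrin 2, which restrains mTORC1) lay below at 42.7 to 63.9 CPM against 73.8 to 103 CPM, while Asns (asparagine synthetase) lay above at 640 to 796 CPM against 455 to 580 CPM. Chac1 and Asns, which moved apart, both hold the ATF4 composite element. Exons of Ddit3 share 68 bases with Mars on the opposite strand, as do those of Derl2 with Mis12 (231 bases), Manf with Dcaf1 (146) and Syvn1 with Mrpl49 (91). Those of Hsp90b1 share 415 bases with the pseudogene 1810014B01Rik, also on the opposite strand. Further overlaps of members with other genes, some on the same strand, are not listed. Without a stated strand setting the counts of these members are uncertain to that extent.

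All 4 translocation and export genes lay above, beside 13.4% of all genes tested, with a median log2 ratio of 0.59. Sec24d, a cargo adaptor of the COPII coat (chromosome 3, 123267455 to 123365641, plus strand), read 180, 202, 206, 221 and 191 CPM in the 5 libraries and 86.8 to 129 CPM (median 98.6) in the other 10, 2.05-fold between medians. Ssr1, a subunit of the translocon-associated complex, had the smallest ratio of the role, at 515, 465, 525, 533 and 490 CPM against 339 to 411 CPM (median 369). The channel subunits Sec61a1 and Sec61b read 1027 to 1422 CPM against 670 to 928 CPM, and 118 to 280 CPM against 65.9 to 109.8 CPM.

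**Figure D3:**
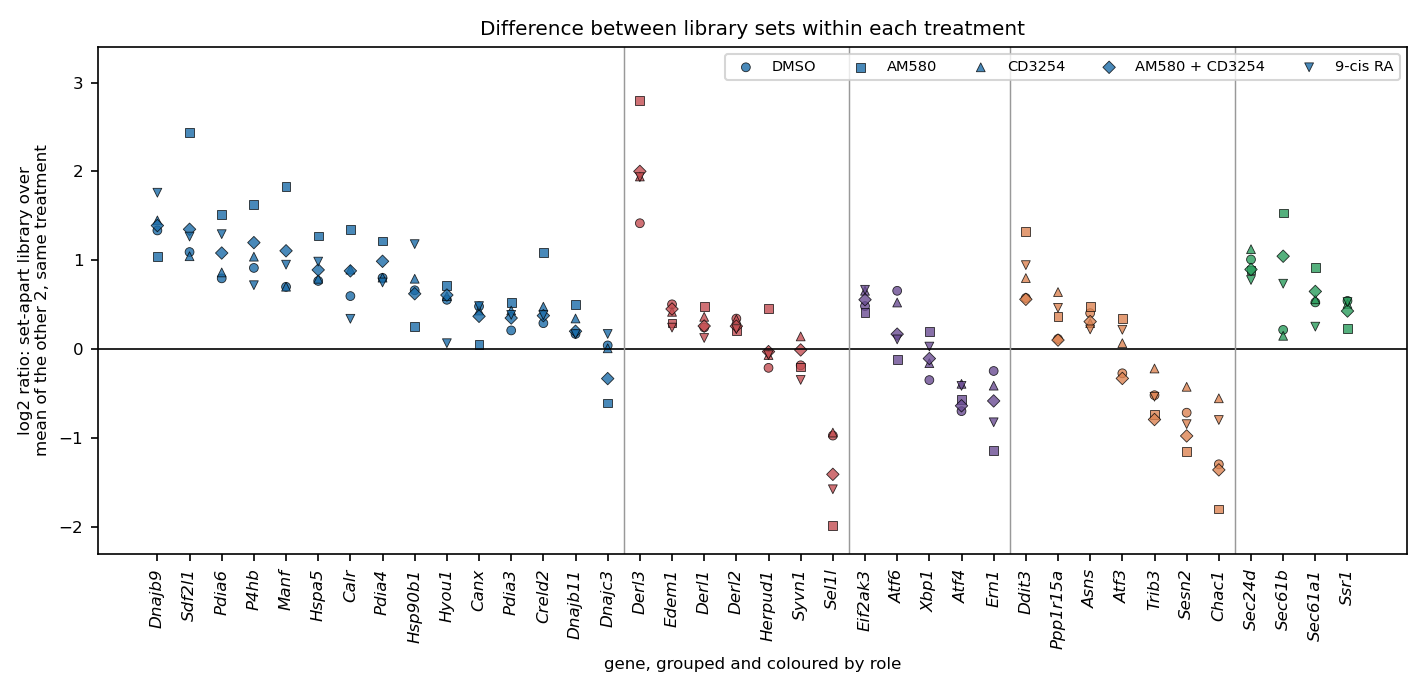
Log2 ratio of the library among the 5 to the mean of the other 2 libraries of the same treatment (vertical axis), 1 symbol per treatment, for each of the 38 members (horizontal axis, grouped and coloured by role). The highest point is that of Derl3 with AM580, the lowest that of Sel1l with AM580, and 26 members have all 5 points above 0.

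The presence of the ER stress response element did not follow this pattern one to one. Of the 9 members with the element, 4 lay above in the 5 libraries (Hspa5, Calr, Pdia6 and Derl3) and 5 overlapped (Hsp90b1, Canx, Dnajc3, Creld2 and Syvn1). Of the 24 members searched without it, 13 lay above, 4 lay below and 7 overlapped. Over all genes tested 13.4% lay above and 12.6% below. A member without the element is one with no exact match in the stretch searched before its start site. Inexact matches and sites farther away were not searched for.

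A further 160 genes of the same pathways were listed by function, of which 155 passed the filter. Over all genes tested 13.4% lay above and 12.6% below. Beside these shares the counts below for other degradation genes and other sensors and factors are not results about those lists. Of 31 other folding genes 12 lay above and none below (median log2 ratio 0.40), led by Ero1l, the oxidase that recharges disulfide isomerases, at 369 to 665 CPM against 36.2 to 58.4 CPM. The prolyl isomerase Fkbp14 and Pdia5 followed at 2.11-fold and 1.82-fold. Of 32 other translocation and export genes 11 lay above and none below (0.30), among them the signal peptidase subunits Sec11c and Spcs3 and the cargo receptor Lman1, each about 2.0-fold at 2.04, 2.01 and 2.03. Of 20 other degradation genes 1 lay above and 1 below (0.03), the latter Faf2 at 0.731-fold. Of 19 other sensors and factors 2 lay above and 4 below (-0.26), with Bhlha15 (MIST1, an acinar factor tied to XBP1) at 2.14-fold, Creb3l4 at 1.89-fold and the haem-regulated eIF2α kinase Eif2ak1 at 0.623-fold.

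Of 33 ATF4 targets outside the members 6 lay above and 7 below, with a median log2 ratio of -0.19. These counts are near those that 13.4% and 12.6% of all genes would give and are not a result about the list. Ddit4, an mTORC1 inhibitor that is also on the hypoxia list, read 551 to 924 CPM against 72.7 to 99.8 CPM, and the hormone gene Fgf21 read 6.02 to 7.69 CPM against 0.909 to 1.66 CPM. Atf5, a factor translated under the same control as ATF4, read 157 to 210 CPM against 648 to 958 CPM. None of the 20 cytosolic aminoacyl-tRNA synthetases, many of which ATF4 is known to drive, lay above, and 7 lay below (median -0.22). The 7 included Wars at 0.524-fold and Tars at 0.553-fold. Of all genes tested 13.4% lay above and 12.6% below. Of the 155 genes tested, 0 were called for a ligand against DMSO by edgeR in either fit described next, and 0 to 2 had an unadjusted p under 0.05 in the fit without the term for the 5 libraries and 1 to 5 in the fit with it. DESeq2 was read for the members alone.

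For the ligands, each treatment was compared with DMSO by edgeR's quasi-likelihood test, with Benjamini-Hochberg adjustment over all genes tested (adjusted p) and a threshold of 0.05. The fit was made without and with a term for the 5 libraries, because that split adds to the spread within each treatment. The median standard error (SE) of a member's log2 fold change was 0.278 without the term and 0.149 to 0.150 with it. The term was read from the same counts, though not from the members or their pathway lists.

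No member passed for any ligand in either fit. Without the term the share of all genes that passed as higher was 0% with AM580, 0% with CD3254, 0.0179% with the joint treatment and 0% with 9-cis retinoic acid, and 0% passed as lower in each. With the term the shares higher were 0.0299%, 0.0239%, 0.125% and 0.0299%, and again 0% passed as lower. At an unadjusted p under 0.05 the fit without the term held 0, 0, 0 and 2 of the 38 members (Trib3 and Atf3), against 1.22%, 0.454%, 1.5% and 1.45% of all genes, and the fit with it held 4, 2, 4 and 4, against 4.21%, 1.98%, 4.79% and 3.97%. DESeq2 without the term called 0 members in each comparison, and with it called Sel1l for the joint treatment and Trib3 for 9-cis retinoic acid. The comparisons share the DMSO libraries.

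Medians over the members were small. With the term, the median log2 fold change of the 38 was 0.12 with AM580, 0.00 with CD3254, 0.02 with the joint treatment and 0.04 with 9-cis retinoic acid, against 0.00, 0.00, -0.01 and 0.01 over all genes. Without it the values were 0.20, 0.00, 0.03 and 0.06, against 0.02, -0.01, 0.00 and 0.01 over all genes. The median of the 7 genes of the ATF4 and CHOP branch with 9-cis retinoic acid was 0.32 with the term and 0.33 without it. In each fit 7 of 7 were positive. In edgeR 3 and 2 of them had an unadjusted p under 0.05, against 3.97% and 1.45% of all genes, and none was called. The signs were not particular to this ligand. Against the same DMSO libraries 7 of 7 were positive with CD3254 in each fit. With the term and without it, 6 and 7 were positive with AM580, and 6 and 6 with the joint treatment. With the term the 95% interval lay wholly within 2-fold for 38 members with AM580, 38 with CD3254, 37 with the joint treatment and 37 with 9-cis retinoic acid, the exception being Sel1l in both. Without the term it did so for 22, 26, 28 and 23 members, and the intervals of the other members reached beyond 2-fold. For Hspa5 the log2 fold change with the term was -0.02 ± 0.14 (SE) with AM580, -0.17 ± 0.14 with CD3254, -0.07 ± 0.14 with the joint treatment and -0.12 ± 0.14 with 9-cis retinoic acid.

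Sel1l had the largest shift with the joint treatment. Its levels, given by treatment above, averaged 866 ± 293 CPM with DMSO and 1685 ± 768 CPM with the joint treatment (SD, n = 3 each), and the libraries of the treatments overlapped. Within the 10 libraries alone, the joint treatment (2053 and 2200 CPM) lay above DMSO (1039 and 1031 CPM), and among the 5 libraries it was 802 against 528 CPM. The edgeR log2 fold change was 0.96 ± 0.57 (SE; adjusted p = 1) without the term and 0.88 ± 0.22 (interval 0.41 to 1.35; unadjusted p = 0.00122; adjusted p = 0.30) with it. With the term it passed in DESeq2 (0.88, adjusted p = 0.0195) and in edgeR with replicate 3 of 9-cis retinoic acid and AM580 replicate 1 both left out (0.90, adjusted p = 0.00171). With the term the other ligands gave 0.39 ± 0.22, 0.49 ± 0.22 and 0.55 ± 0.22 with AM580, CD3254 and 9-cis retinoic acid.

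Trib3 (a pseudokinase that dampens AKT and ATF4 activity; chromosome 2, 152337422 to 152344032, minus strand) had the smallest p with 9-cis retinoic acid. It read 118, 176 and 162 CPM with DMSO, 138, 236 and 223 CPM with AM580, 176, 203 and 207 CPM with CD3254, 245, 132 and 210 CPM with the joint treatment and 177, 258 and 255 CPM with 9-cis retinoic acid. All 3 libraries with 9-cis retinoic acid, and all 3 with CD3254, lay above all 3 with DMSO by a narrow margin, the lowest at 177.0 and 176.4 CPM against 176.1 CPM, and the libraries with AM580 and the joint treatment overlapped those with DMSO. The edgeR log2 fold change with 9-cis retinoic acid was 0.60 ± 0.26 (SE; adjusted p = 1) without the term and 0.60 ± 0.13 (interval 0.31 to 0.88; unadjusted p = 0.000539; adjusted p = 0.564) with it. DESeq2 with the term gave 0.60 (adjusted p = 0.0135).

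Comparisons among ligands gave no call among the members either. For the interaction of AM580 and CD3254 the edgeR fits called 0 members, with 0% of all genes called in either direction, and at an unadjusted p under 0.05 they held 0 members without the term and 1 with it (Trib3), against 0.592% and 1.98% of genes. Between 9-cis retinoic acid and the joint treatment, which each engage both receptor families, 0 members were called, against 0% of genes without the term and 0.00598% lower with it, and 0 and 1 member (Ppp1r15a) had an unadjusted p under 0.05, against 1.03% and 3.39%. Sel1l was lower with 9-cis retinoic acid by a fitted log2 value of -0.34 (interval -0.80 to 0.13), and for all 38 members the interval with the term lay within 2-fold. For any ligand together edgeR called 0 members against 0.00598% and 0.0837% of genes, with 0 and 2 members (Sel1l and Trib3) at an unadjusted p under 0.05, against 0.801% and 2.69%. DESeq2 called 0 members in each of these comparisons, with and without the term.

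**Figure D4:**
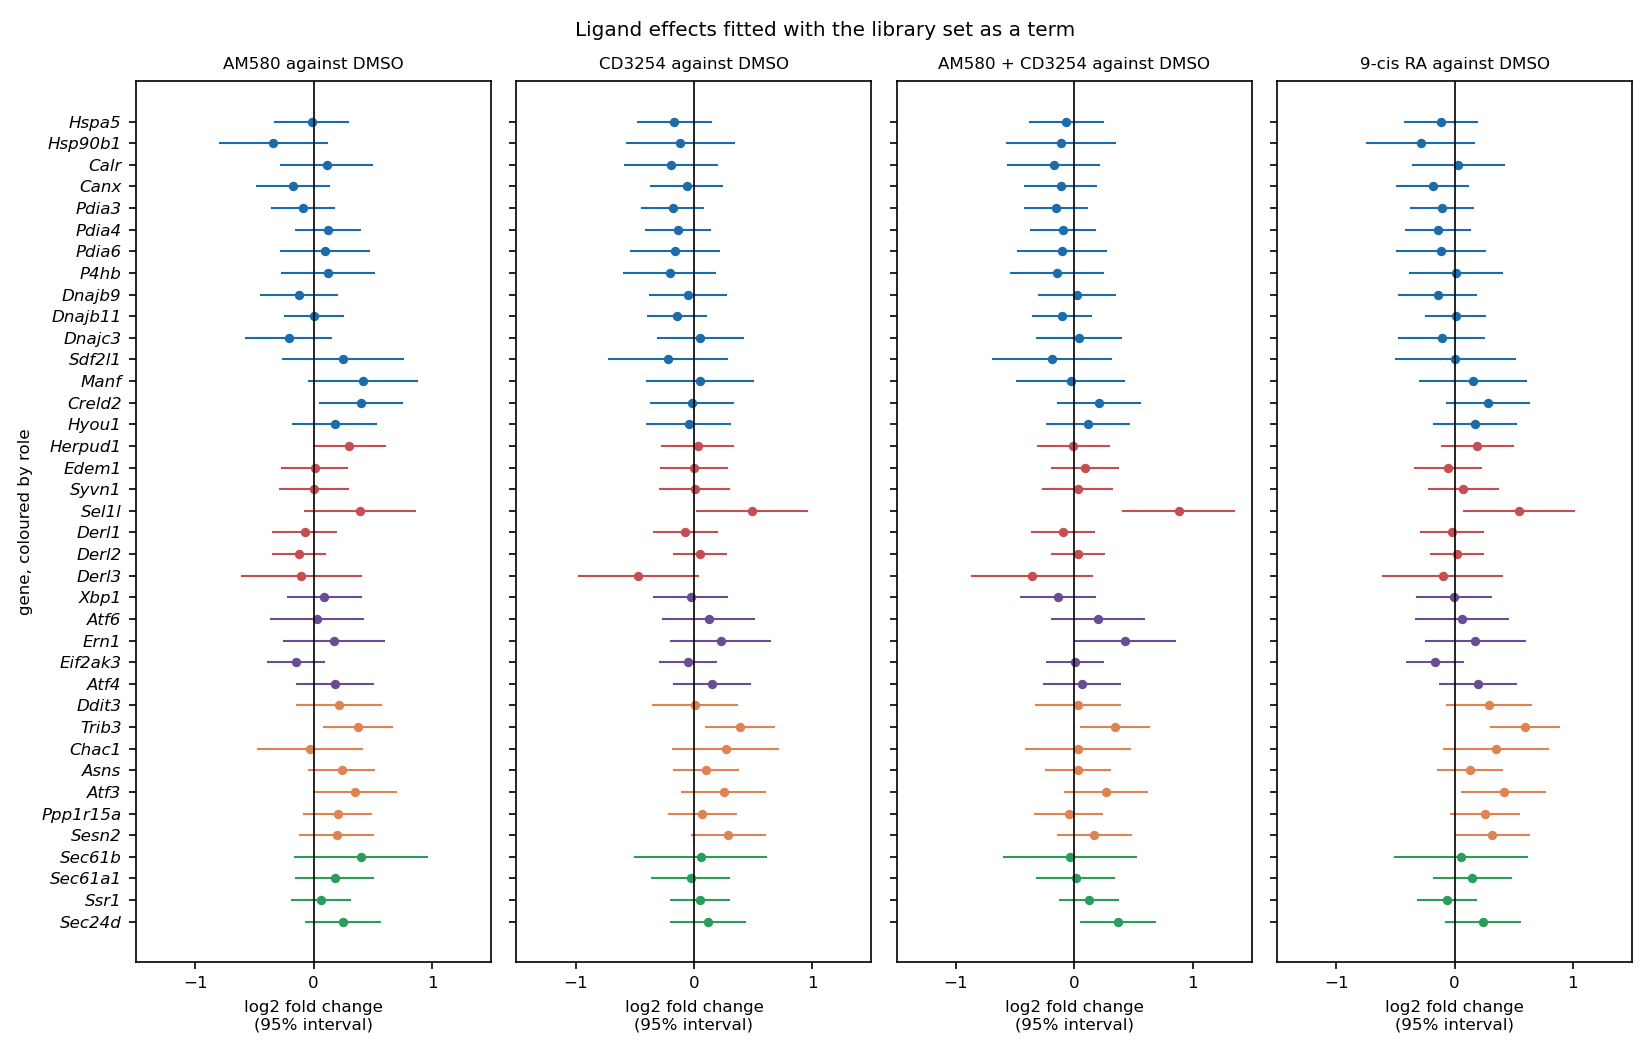
Fitted log2 fold change against DMSO with its 95% interval (horizontal axis) for each of the 38 members (vertical axis), in 4 panels by ligand, from the edgeR fit with the term for the 5 libraries. The interval leaves out 0 for 4, 2, 4 and 4 of the 38 members in the order of the panels, and Sel1l with the joint treatment lies farthest right at 0.88.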

How the data were processed

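Total RNA of 266-6 cells (5 treatments, 3 libraries each) was sequenced. The authors deposited unnormalized counts of reads by Ensembl gene. FastQC, HISAT2 2.2.1, SAMtools 1.18, HTSeq and the mm10 build are named in the submitters' processing notes. The strand setting is not given in the sources used here, and overlapping and antisense genes may share reads. Reads that the counter put in no gene (18.1% to 63.0% per library) stayed out of library sizes. Counts were tested with edgeR 4.0.16 (limma 3.58.1, R 4.3.3): filterByExpr, TMM factors, robust quasi-likelihood models on all 15 libraries, two-sided, with Benjamini-Hochberg adjustment over 16736 genes per contrast and a threshold of 0.05. A second fit added a term for the 5 libraries. DESeq2 1.42.0, other scaling, filters, a replicate block and left-out libraries were alternatives. CPM uses the TMM factors, log2 CPM a prior count of 2, and ratios of the library sets a pseudocount of 0.1 CPM. Coordinates are from GENCODE M21 on GRCm38. Fits were tested on simulated data.

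The members, lists, naming rule and tests were chosen with earlier results of these data known. Members given per library are those with the largest and smallest difference between the library sets in each role, the 4 highest per length, and those past the threshold in any setting; Hspa5 was added after its values were seen. Of other pathway genes up to 3 per list are named, and cell type markers are named without that limit.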

Additional observations from a re-analysis of the deposited data

How the results depend on the processing

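The number of members called for a ligand was 0 in every edgeR setting except 1. That setting had the term for the 5 libraries and left out replicate 3 of 9-cis retinoic acid and AM580 replicate 1. There the number was 1 for the joint treatment and 1 for any ligand (Sel1l in each). DESeq2 with that term called 1 member with the joint treatment (Sel1l) and 1 with 9-cis retinoic acid (Trib3). The cause was not tested. The joint-treatment estimate of Sel1l ranged from 0.70 to 1.29 and the 9-cis retinoic acid estimate of Trib3 from 0.44 to 0.75, both on the log2 scale over all settings, and no direction reversed. With the replicate number as a block the count of members called was 0, and Sel1l gave 1.14 with the joint treatment. Deviations of same-numbered libraries correlated from -0.681 to 0.815 (median 0.385, over 0.1 in 20 of 30 pairs, against a median of -0.21 for different numbers). Of the 15 libraries 7 correlated best with their own number. Since not every pair was over 0.1, the numbers were not taken as a pairing. Replicate 1 was the library among the 5 in every treatment but the joint one, so a pairing by number cannot be fully told apart from the library split. The count of members apart between the library sets was 23 above and 4 below without AM580 replicate 1 (16.1% and 15.5% of all genes), 22 and 4 without replicate 3 of 9-cis retinoic acid (15.3% and 14.6%), and 24 and 4 without both (18% and 19%). With 3 libraries a treatment, wide intervals without the term limit what could be called.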

Other observations

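AM580 replicate 1 had a profile of its own among the 5 libraries. On the first principal component, computed without the members, it lay at -89.6 against -71.5 to -59.2 in the other 4 of the 5 libraries. AM580 replicate 1 was the highest of all 15 libraries for 20 of the 38 members and the lowest for 5. Manf, a secreted stress-induced factor, read 673 CPM there against 306 to 385 CPM in the other 4 of the 5 libraries, and Sdf2l1 read 385 against 153 to 200 CPM. The translocon subunit Sec61b read 280 against 118 to 170 CPM. In contrast, Hsp90b1 read 1511 against 2119 to 2402 CPM, Canx 1217 against 1481 to 1685 CPM and Dnajc3 247 against 337 to 398 CPM. In 24 of the 38 members the difference between this library and the other AM580 libraries was the largest in size among the 5 treatments. Neither count was made over all genes tested, so neither can be read as particular to the members.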
